A study of Mus musculus with 6 samples.

Results

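The genes described here are 41 mouse genes of DNA replication that load, fire and run the replication fork: 7 of origin licensing, 12 of the replicative helicase, 2 of the firing kinase, 5 of the clamp loader, 9 polymerase and primase subunits, 3 of the single-strand binding complex, 2 of Okazaki fragment processing, and Uhrf1, which reads new DNA behind the fork. Members were taken by symbol, current or earlier (Cdc45 was also listed as Cdc45l, Orc2 as Orc2l and Orc6 as Orc6l), among the 22229 named genes of the array. All 41 had a probe. They had 54 probes among the 55681 of the array, and 51 of these passed the filter, which asked for a signal well above background on every array of control siRNA or of SetD8 siRNA. The probe used for each member was well above background on all 6 arrays, so no member was lost to a filter.

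The arrays compared 3 samples of G1E-ER-GATA-1 cells given non-targeting siRNA with 3 given siRNA against SetD8, the enzyme that puts the first methyl group on a lysine of the histone H4 tail, encoded by Setd8 (now Kmt5a). G1E-ER-GATA-1 is a mouse erythroid precursor line without a working Gata1 gene of its own; it holds a GATA-1 protein fused to part of the estrogen receptor, which β-estradiol switches on to start maturation. Both groups were nucleofected with siRNA at 0 h and again at 24 h, received β-estradiol from 24 h, and were harvested at 48 h; there was no group without β-estradiol. The model is 1 cell line, the labels tell apart no more than 1 SetD8 siRNA reagent, and nothing says that replicate arrays were separate cultures. The p-values here set the difference between groups against the variation between arrays, which may be technical.

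Before S phase, the origin recognition complex (ORC) and Cdc6 place the MCM helicase on DNA, and geminin blocks this loading once S phase has begun. The Dbf4-Cdc7 kinase then fires the origin, Cdc45 and the GINS complex join the MCM ring to form the active helicase, polymerase α with primase starts each strand, and the clamp loader places the sliding clamp that holds polymerases δ and ε on DNA. Most of these genes are transcribed under E2F control at the start of S phase, and maturing erythroid cells keep dividing for a few rounds before they leave the cycle.

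The Setd8 message itself was lower in the knockdown. Its log2 signal was 11.49, 11.57 and 11.24 on the control arrays and 9.58, 9.26 and 9.24 on the SetD8 siRNA arrays, a difference of −2.07 ± 0.15 (SE; 4.20-fold lower; limma adjusted p = 0.00849). A second kept probe for it gave a smaller difference, −1.13. The call was lost without control 1 or without any 1 of the SetD8 siRNA arrays (limma adjusted p 0.00742 to 0.0827 over the 6 arrays left out in turn), and Kmt5a differed by −2.23 under 75th percentile scaling (limma adjusted p = 0.561). The arrays were uneven: 40.2% to 82.5% of probes were well above background on the control arrays and 60.3% to 68.6% on the SetD8 siRNA arrays. Control 1 shared a slide with SetD8 siRNA 1 and 2, control 3 shared another with SetD8 siRNA 3, and control 2 was alone on its slide. Values below are log2 signals after normexp background correction and quantile normalization, in which replicate arrays correlated at 0.953 to 0.985 among controls and 0.989 to 0.992 among SetD8 siRNA arrays; the other scaling, each array's 75th percentile, gave correlations of 0.870 to 0.962 among controls and called 0 of 14429 genes in either direction (0% higher and 0% lower; at an unadjusted p under 0.05, 2.83% were higher and 0.686% lower).

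Replication genes as a group had lower signals after SetD8 siRNA, by a modest amount. Of the 41 members, 38 had a negative difference (SetD8 siRNA minus control) and 3 a positive one, and the median was −0.35, with a range from −0.68 to 0.74; over all 14429 genes 44.9% were negative and the median was 0.03. Rfc2, a clamp loader subunit, was the 1 member called, and it was higher; 1.46% of all genes were called higher and 0.236% lower (limma, adjusted p under 0.05). No member was called lower. At an unadjusted p under 0.05, 19 members were lower and 1 was higher, against 6.39% and 9.37% of all genes, and the adjusted p of those 19 ran from 0.0604 to 0.286. In 21 members every SetD8 siRNA array lay below every control array, and in 2, Rfc1 and Rfc2, every one lay above, where 9.94% and 13.7% of all genes did so. In a bulk sample such as this, fewer cells in S phase and less of these messages per cell cannot be told apart.

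**Figure D1:**
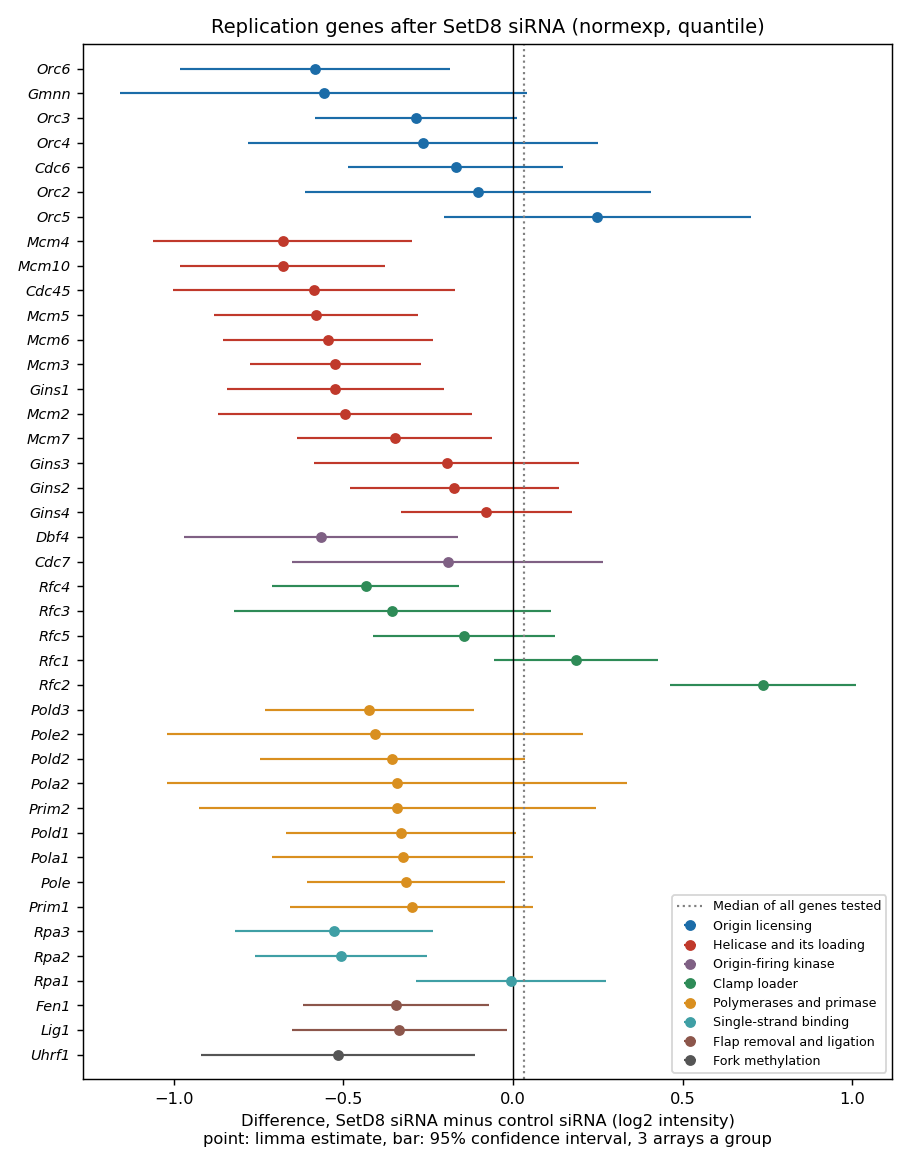
Difference in log2 signal (SetD8 siRNA minus control siRNA) of each of the 41 replication genes, grouped by role, with 95% intervals from limma over 3 arrays a group, after normexp and quantile normalization. Points lie between −0.68 and 0.74, 38 of them below 0, and Rfc2 stands alone at the upper end.

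The median over members, set relative to the control mean of each gene, was 0.01, 0.12 and −0.14 on control arrays 1, 2 and 3 and −0.32, −0.41 and −0.35 on the SetD8 siRNA arrays. The SetD8 siRNA arrays lay close together, and the controls were spread, with control 3 nearest to them. Control 3 was the lowest control array in 32 members and control 2 the highest in 35, against 48.8% and 43.6% of all genes; the part of these 2 arrays in the result was not tested. Within slide 1 (control 1 against SetD8 siRNA 1 and 2) the member median was −0.38, with 37 members negative, and within slide 3 (control 3 against SetD8 siRNA 3) it was −0.20, with 28 negative; all genes had medians of 0.01 and 0.06. On both slides 28 members were lower and 4 higher (Rfc2, Rfc1, Orc5 and Rpa1), and 9 went opposite ways. With slide as a block in limma, 37 members were negative with a median of −0.30, against 47.1% of all genes negative. None of the 41 was then called (0 higher and 0 lower; 0.0901% and 0.00693% of all genes), and 13 were lower at an unadjusted p under 0.05, against 4.96% of all genes.

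At the 75th percentile scaling, 38 members were negative over all arrays (45.8% of all genes were), with a median of −0.57 against 0.06 for all genes, and 0 were called; 0 members had an unadjusted p under 0.05. The SetD8 siRNA arrays lay below all controls in 5 members (Orc4, Mcm4, Mcm6, Cdc45 and Dbf4), where 2.54% of all genes did. This scaling did not give 1 direction on both slides. Within slide 1 the member median was −0.67 and all genes −0.09, while within slide 3 the member median was 0.21 and all genes 0.32.

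**Figure D2:**
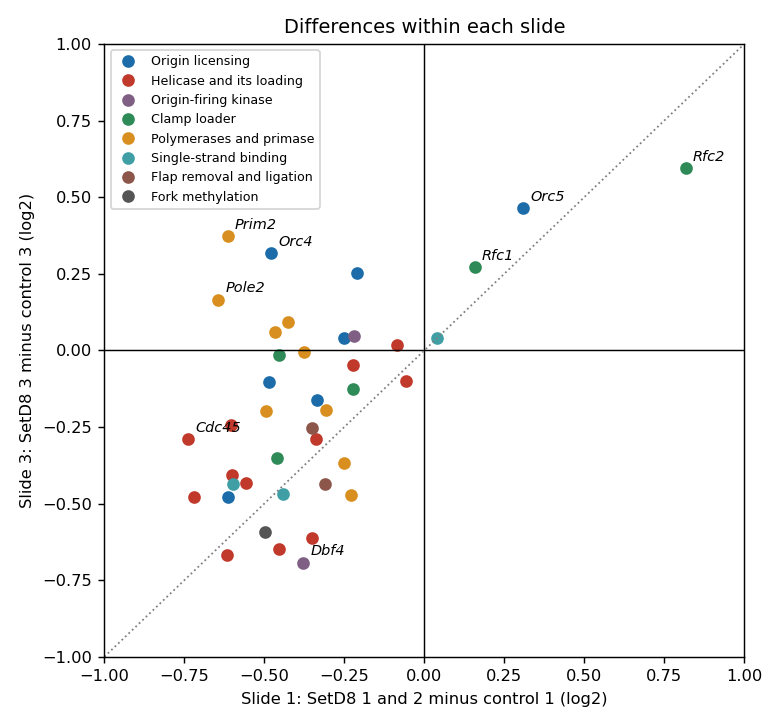
Difference in log2 signal of each member on slide 1 (SetD8 siRNA 1 and 2 minus control 1) and on slide 3 (SetD8 siRNA 3 minus control 3), after normexp and quantile normalization. Of the 41 members, 28 lie below 0 on both slides and 4 above 0 on both.

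Among the 7 licensing genes, 6 had negative differences, the median was −0.27, and 0 were called (1.46% of all genes were called higher and 0.236% lower). Orc6, the smallest ORC subunit, had the largest difference of the group. It read 13.21, 13.25 and 12.90 on the controls and 12.80, 12.39 and 12.42 on the SetD8 siRNA arrays, a difference of −0.58 ± 0.17 (SE; 1.50-fold lower; limma adjusted p = 0.151). At the 75th percentile scaling its groups overlapped, and on slide 3 it read 4.77 on control 3 and 4.89 on SetD8 siRNA 3. After normexp and quantile normalization all 3 SetD8 siRNA arrays lay below the controls, and the gene was lower on slide 1 (−0.61) and on slide 3 (−0.48). Orc3, which sits in the core of the ORC ring, read 11.40, 11.42 and 11.50 against 11.11, 11.02 and 11.34, also without overlap, with a smaller difference of −0.29 (95% interval −0.58 to 0.01). Gmnn, which encodes geminin, the inhibitor of licensing, read 9.03, 9.64 and 8.71 against 8.74, 8.36 and 8.61; its groups overlapped through control 3 (difference −0.56 ± 0.25 SE, limma adjusted p = 0.352). Cdc6, the ATPase that joins ORC to load MCM, differed by −0.17 ± 0.13 (SE), and a second probe for it by −0.50.

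Orc5, an ATPase subunit of ORC, was 1 of the 3 members with a positive difference. Its signal was 8.22, 8.56 and 7.93 on the controls and 8.68, 8.39 and 8.40 on the SetD8 siRNA arrays, so that the groups overlapped (0.25 ± 0.19 SE, 95% interval −0.20 to 0.70); scaling to the array median turned its sign. Orc2 (−0.10) and Orc4 (−0.27) also overlapped, and both were lower within slide 1 and higher within slide 3. The group's median was −0.33 within slide 1 and 0.04 within slide 3, so its direction was not the same on the slides. The promoters of Orc5 and Orc6, the licensing genes furthest apart in difference, are given as RefSeq has them on GRCm38.p6, from 250 bases before the start of transcription to 50 after it, at chr5:22550289-22550588 (minus strand) and chr8:85299382-85299681 (plus strand); neither holds a match to the E2F motif letters searched below, and so neither carries capitals.
Orc5: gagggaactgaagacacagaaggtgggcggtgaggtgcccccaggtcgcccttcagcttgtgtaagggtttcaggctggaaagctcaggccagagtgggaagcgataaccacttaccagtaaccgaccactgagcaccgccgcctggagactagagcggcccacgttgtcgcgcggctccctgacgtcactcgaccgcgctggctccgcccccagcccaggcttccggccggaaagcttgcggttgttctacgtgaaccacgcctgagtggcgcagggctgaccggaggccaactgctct
Orc6: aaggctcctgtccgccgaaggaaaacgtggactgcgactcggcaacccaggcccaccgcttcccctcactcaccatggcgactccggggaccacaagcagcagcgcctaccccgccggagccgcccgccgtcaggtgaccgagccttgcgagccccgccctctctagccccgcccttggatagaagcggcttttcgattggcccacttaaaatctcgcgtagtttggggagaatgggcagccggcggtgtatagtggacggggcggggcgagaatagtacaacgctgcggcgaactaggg

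All 12 genes of the replicative helicase, the motor that unwinds DNA, had lower signals after SetD8 siRNA. Their median difference was −0.52, and in 9 of them the SetD8 siRNA arrays lay wholly below the controls (9.94% of all genes). At an unadjusted p under 0.05, 9 were lower (6.39% of all genes), and 0 were called (1.46% of all genes were called higher and 0.236% lower). The 6 subunits of the MCM ring, Mcm2 to Mcm7, lay between −0.68 and −0.35 with a median of −0.53, all without overlap, and all 6 were lower within slide 1 (median −0.51) and within slide 3 (median −0.45). At the 75th percentile scaling the same 6 had a median of −0.72, with −0.79 within slide 1 and −0.02 within slide 3. The group medians on single arrays were −0.49, −0.47 and −0.48 for SetD8 siRNA and 0.00, 0.11 and −0.11 for control.

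Mcm4, a ring subunit, had the largest difference of the ring. It read 14.05, 14.17 and 13.76 on the controls and 13.50, 13.16 and 13.28 after SetD8 siRNA, a difference of −0.68 ± 0.16 (SE; 1.60-fold lower; limma adjusted p = 0.0993). Mcm5 read 12.68, 12.86 and 12.78 against 12.09, 12.36 and 12.13 (−0.58, limma adjusted p = 0.0834), and Mcm6 read 15.21, 15.24 and 14.92 against 14.59, 14.63 and 14.51 (−0.55, limma adjusted p = 0.101). In both genes the highest SetD8 siRNA array was below the lowest control. Mcm2 read 11.67, 11.85 and 11.58 against 11.21, 11.44 and 10.97 (−0.50), and Mcm7, the smallest of the 6 differences, read 13.97, 14.05 and 13.85 against 13.52, 13.74 and 13.56 (−0.35; limma adjusted p = 0.220). These adjusted p values all missed the threshold.

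Mcm3 had 2 overlapping probes on the minus strand of chromosome 1 (mm9), at chr1:20793119-20793178 and chr1:20793136-20793195. The 2 share 43 bases with 1 mismatch, A31G, counted from 1 at the 5′ end of the upstream probe, whose base is given first. The shared bases around the mismatch are shown because these probes measured the same stretch of message in duplicate, with the mismatched base in capitals.
Mcm3 upstream probe: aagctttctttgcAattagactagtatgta
Mcm3 downstream probe: aagctttctttgcGattagactagtatgta
The downstream probe, which had the higher mean and so stood for the gene, read 13.87, 13.90 and 13.87 on the controls and 13.27, 13.36 and 13.44 on the SetD8 siRNA arrays. The controls were within 0.03 of each other, and the difference of −0.52 ± 0.10 (SE; 95% interval −0.77 to −0.27; 1.44-fold lower) had a limma adjusted p of 0.0714. The upstream probe gave −0.58. Across the 10 members with several kept probes, all probes were negative in 9, the exception being Rpa1 (−0.01 and 0.04), and the widest spread between probes of 1 gene was 0.37, in Pole. Gmnn is among the 9, but its second probe is placed on the plus strand and its used probe on the minus strand. That second probe is therefore not a repeat reading of the same message.

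Mcm10, which helps Cdc45 and the polymerases join the fork, had the lowest adjusted p of the members with a negative difference. Its signal was 11.16, 11.29 and 11.07 on the controls and 10.44, 10.65 and 10.40 on the SetD8 siRNA arrays, a difference of −0.68 ± 0.13 (SE; 95% interval −0.98 to −0.38; 1.60-fold lower; limma adjusted p = 0.0604). At the 75th percentile scaling its groups overlapped. On slide 1 it then read 3.79 on control 1 and 2.81 and 3.00 on SetD8 siRNA 1 and 2. On slide 3 it read 2.88 on control 3 and 2.80 on SetD8 siRNA 3. After normexp and quantile normalization its groups did not overlap, and it was lower by like amounts on slide 1 (−0.62) and slide 3 (−0.67). Its probe lies at chr2:4911785-4911844 on the minus strand (mm9). Cdc45, the helicase's partner protein, read 8.61, 8.60 and 8.27 against 8.11, 7.63 and 7.98, again without overlap (−0.59 ± 0.17 SE, limma adjusted p = 0.162).

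The 4 GINS genes, which encode a small ring that ties Cdc45 to MCM, had unequal differences. Gins1 read 10.76, 10.87 and 10.60 on the controls and 10.24, 10.06 and 10.35 on the SetD8 siRNA arrays (−0.52 ± 0.13 SE, limma adjusted p = 0.120). Gins2, Gins3 and Gins4 differed by −0.17, −0.20 and −0.08, and in each the groups overlapped. Taken as a log2 ratio on the same array, Gins4 over Gins1 was higher after SetD8 siRNA by 0.44, Gins2 over Gins1 by 0.35 and Gins3 over Gins1 by 0.33. Such a ratio cancels any scaling of a whole array by 1 factor, but quantile normalization is not such a scaling. At the 75th percentile scaling, which is, the 3 ratios differed by 0.49, 0.38 and 0.47, also without overlap. In these 3 ratios the groups did not overlap (exact two-sided permutation p = 0.1, the smallest that 3 against 3 arrays allow; 0.111 adjusted over the 10 ratios computed). These 10 ratios between subunits of 1 complex were chosen after the values were seen.

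The promoters of 4 helicase genes with large differences are shown for the letters of an E2F motif, printed in capitals: TTTCGCGC, TTTCCCGC, TTTGGCGC or TTTGCCGC, read on both strands. Mcm5 (chr8:75109259-75109558, plus strand) and Mcm6 (chr1:128359656-128359955, minus strand) hold matches and were picked for that after the search. Mcm10 (chr2:5012742-5013041, minus strand) and Cdc45 (chr16:18811923-18812222, minus strand), the helicase genes with the largest differences that have a promoter in the table, hold none in this window. All are on GRCm38.p6.
Mcm5: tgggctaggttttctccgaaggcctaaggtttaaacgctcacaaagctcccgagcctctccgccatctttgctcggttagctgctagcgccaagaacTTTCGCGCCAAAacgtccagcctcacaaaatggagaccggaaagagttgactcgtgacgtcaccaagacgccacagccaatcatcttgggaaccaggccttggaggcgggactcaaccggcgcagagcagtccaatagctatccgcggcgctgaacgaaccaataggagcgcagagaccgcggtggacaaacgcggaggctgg
Mcm6: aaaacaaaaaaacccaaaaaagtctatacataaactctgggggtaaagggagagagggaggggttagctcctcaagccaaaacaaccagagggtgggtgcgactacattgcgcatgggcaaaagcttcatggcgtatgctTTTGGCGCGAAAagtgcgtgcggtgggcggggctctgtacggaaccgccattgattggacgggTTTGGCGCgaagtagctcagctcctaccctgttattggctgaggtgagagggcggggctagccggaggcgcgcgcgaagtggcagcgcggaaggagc
Mcm10: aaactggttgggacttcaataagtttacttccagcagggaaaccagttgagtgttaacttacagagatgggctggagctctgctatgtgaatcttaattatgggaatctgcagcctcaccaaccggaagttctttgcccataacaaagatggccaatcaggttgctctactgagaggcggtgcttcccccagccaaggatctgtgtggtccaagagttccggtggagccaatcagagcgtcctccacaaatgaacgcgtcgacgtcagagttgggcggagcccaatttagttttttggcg
Cdc45: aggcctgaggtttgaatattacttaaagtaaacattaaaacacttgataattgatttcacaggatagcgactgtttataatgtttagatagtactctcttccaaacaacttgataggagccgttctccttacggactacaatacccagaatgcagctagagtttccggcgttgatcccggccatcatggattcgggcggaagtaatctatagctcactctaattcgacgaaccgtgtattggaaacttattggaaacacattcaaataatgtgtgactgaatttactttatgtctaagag
Mcm5 has a match at base 98 and a second, on the other strand, at base 102 that overlaps it; Mcm6 has such an overlapping pair at bases 141 and 145 and another match at base 204. Of the 41 members, 33 were in the promoter table, and 14 of those (42.4%) had at least 1 match: Mcm3, Mcm5, Mcm6, Mcm7 and Gins3 of the helicase, Pola1, Pold1, Pold3 and Pole2 of the polymerases, Orc3, Cdc6, Rfc3, Lig1 and Uhrf1. Of all 27025 genes with a promoter there, 704 (2.60%) had a match; of single promoters, 14 of the 43 of members (32.6%) and 744 of all 32851 (2.26%) had one. The median difference was −0.35 in the 14 members with a match and −0.35 in the 19 without.

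**Figure D3:**
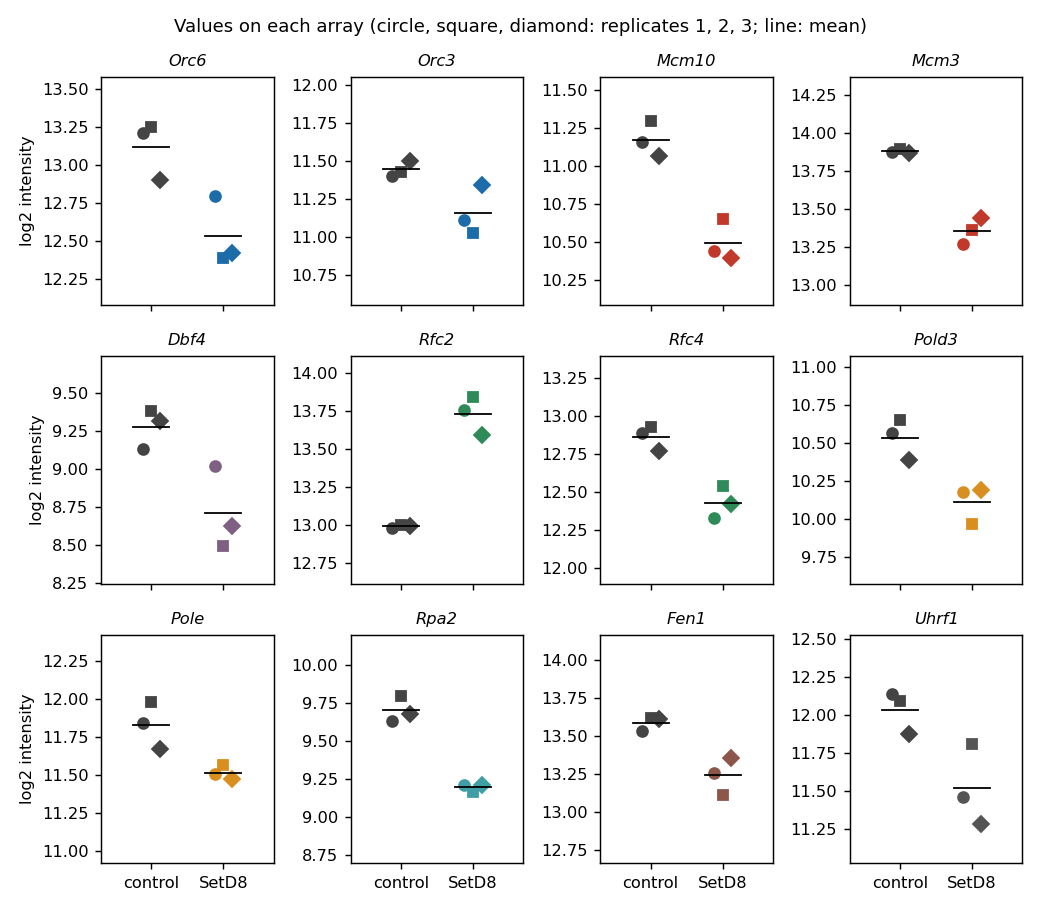
Log2 signal on each of the 6 arrays, after normexp and quantile normalization, for members of each role. Each point is 1 array, control siRNA or SetD8 siRNA, lines are group means, and the axes span equal widths but do not start at 0; the SetD8 siRNA points of Mcm10 lie between 10.40 and 10.65, below its controls at 11.07 to 11.29, and those of Rfc2 lie between 13.59 and 13.84, above its controls.

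The firing kinase has a regulatory subunit, Dbf4, and a catalytic one, Cdc7. Dbf4 read 9.13, 9.38 and 9.32 on the controls and 9.02, 8.49 and 8.62 on the SetD8 siRNA arrays, with no overlap (−0.57 ± 0.17 SE; 95% interval −0.97 to −0.16; limma adjusted p = 0.167). Cdc7 read 7.17, 7.35 and 6.70 against 6.89, 7.01 and 6.75, and its groups overlapped (−0.19 ± 0.19 SE). The ratio of Cdc7 to Dbf4 on the same array overlapped between groups too (0.37; exact two-sided permutation p = 0.4).

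The clamp loader held members of both directions, 3 negative and 2 positive. Rfc2, a small ATPase subunit, rose: it read 12.98, 13.00 and 12.99 on the controls and 13.76, 13.84 and 13.59 on the SetD8 siRNA arrays, means of 12.99 ± 0.01 and 13.73 ± 0.13 (SD, n = 3 arrays each). The difference was 0.74 ± 0.11 (SE; 95% interval 0.46 to 1.01; 1.67-fold higher; limma adjusted p = 0.0387), and it was higher on slide 1 (0.82) and on slide 3 (0.59). The call did not hold under several alternatives: leaving out any 1 of the 6 arrays ended it (limma adjusted p 0.0538 to 0.228, differences 0.68 to 0.81), as did slide as a block (0.72, limma adjusted p = 0.137). Under 75th percentile scaling Rfc2 differed by 0.53 ± 0.38 (SE, limma adjusted p = 0.927). Scaling to the array median, which set the median of all genes at −0.45, gave Rfc2 a difference of 0.01. Its 1 probe, at chr5:135073809-135073868 on the plus strand (mm9), is shown in part because the called value rests on it.
Rfc2 probe, bases 1 to 30: atggctccagtggccagctgacttgagacg

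The other clamp loader subunits differed from Rfc2. Rfc4, another small subunit, read 12.89, 12.92 and 12.77 on the controls and 12.33, 12.54 and 12.42 after SetD8 siRNA, a difference of −0.43 ± 0.11 (SE; 95% interval −0.71 to −0.16; 1.35-fold lower; limma adjusted p = 0.129), and a second probe gave −0.56. The large subunit Rfc1 read 11.07, 11.10 and 11.03 against 11.24, 11.21 and 11.30, higher without overlap but by little (0.19, 95% interval −0.05 to 0.43), and scaling to the array median turned its sign. Rfc3 (−0.36) and Rfc5 (−0.15) overlapped between groups. As a log2 ratio on the same array, Rfc2 was higher after SetD8 siRNA relative to Rfc4 by 1.17, to Rfc3 by 1.09, to Rfc5 by 0.88 and to Rfc1 by 0.55, with no overlap between groups in any of the 4 (exact two-sided permutation p = 0.1 each, the smallest possible; 0.111 adjusted over the 10). At the 75th percentile scaling these ratios differed by 1.13, 1.11, 0.93 and 0.52, also without overlap. The 4 pairs share Rfc2 and were chosen after the values were seen, so their p-values are no separate support. Rfc2 over Rfc4 was higher within slide 1 by 1.28 and within slide 3 by 0.94.

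The 9 polymerase and primase genes had nearly the same difference: all were negative, from −0.42 to −0.30, with a median of −0.34. Of these, 0 were called (1.46% of all genes were called higher and 0.236% lower). Pold3, an accessory subunit of polymerase δ, was the largest, at 10.56, 10.65 and 10.38 on the controls and 10.18, 9.96 and 10.19 after SetD8 siRNA (−0.42 ± 0.13 SE; 1.34-fold lower; limma adjusted p = 0.173). Pole, the catalytic subunit of polymerase ε, read 11.84, 11.98 and 11.67 against 11.50, 11.56 and 11.47 (−0.32 ± 0.12 SE, limma adjusted p = 0.274). Pold1, the catalytic subunit of polymerase δ, read 12.04, 12.09 and 12.02 against 11.64, 11.97 and 11.55 (−0.33). These 3 were the polymerase genes without overlap between groups, where 9.94% of all genes had SetD8 siRNA arrays wholly below the controls.

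In the other 6 the arrays overlapped. Pold2 differed by −0.36 and Pole2, the second subunit of polymerase ε, by −0.41, and the 4 genes of polymerase α and primase, which lay the first primer, by −0.32 (Pola1), −0.34 (Pola2), −0.30 (Prim1) and −0.34 (Prim2). Their lowest control was control 3 in each case. The value of Prim2 came from a probe designed on a cDNA clone, because the probe on its RefSeq message was well above background on 3 of 6 arrays and was not kept. The group's median was −0.43 within slide 1, with all 9 negative, and −0.00 within slide 3, with 5 negative, so it was not lower on both.

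The single-strand binding complex RPA coats unwound DNA. Rpa2, its middle subunit, read 9.63, 9.80 and 9.67 on the controls and 9.21, 9.16 and 9.21 on the SetD8 siRNA arrays (−0.51 ± 0.11 SE; 1.42-fold lower; limma adjusted p = 0.0786). Rpa3, the smallest subunit, read 13.22, 13.17 and 12.98 against 12.71, 12.54 and 12.55 (−0.53 ± 0.12 SE, limma adjusted p = 0.0966). At the 75th percentile scaling both overlapped between groups. The median of the 3 RPA genes was then −0.67 within slide 1 and 0.18 within slide 3, where all genes had −0.09 and 0.32. After normexp and quantile normalization Rpa2 and Rpa3 were both without overlap and lower on both slides. Rpa1, the large DNA-binding subunit, did not follow them: it read 13.21, 13.35 and 13.10 against 13.25, 13.25 and 13.14, a difference of −0.01 with a 95% interval of −0.28 to 0.27. On the same array the log2 ratio of Rpa1 to Rpa2 was higher after SetD8 siRNA by 0.50 and that of Rpa1 to Rpa3 by 0.52, without overlap (exact two-sided permutation p = 0.1 each, 0.111 adjusted; the sizes were 0.42 and 0.60 with the 75th percentile scaling). These pairs too were chosen after the values were seen, so their p-values are no separate support.

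Okazaki fragments are trimmed by Fen1, a flap nuclease, and sealed by Lig1, a ligase. Fen1 read 13.54, 13.62 and 13.61 on the controls and 13.26, 13.11 and 13.36 on the SetD8 siRNA arrays (−0.35 ± 0.11 SE; 1.27-fold lower; limma adjusted p = 0.204). Lig1 read 13.47, 13.42 and 13.63 against 13.00, 13.32 and 13.20 (−0.34 ± 0.13 SE, limma adjusted p = 0.286). At the 75th percentile scaling both overlapped, with pair medians of −0.65 within slide 1 and 0.20 within slide 3 (all genes −0.09 and 0.32). After normexp and quantile normalization the groups did not overlap in either gene, where 9.94% of all genes had SetD8 siRNA arrays wholly below the controls. The pair then had medians of −0.33 within slide 1 and −0.34 within slide 3. Uhrf1, which brings the maintenance DNA methyltransferase to new DNA, read 12.13, 12.09 and 11.87 against 11.46, 11.81 and 11.28, again apart (−0.52 ± 0.17 SE; 1.43-fold lower; limma adjusted p = 0.199), and a second probe gave −0.43.

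**Figure D4:**
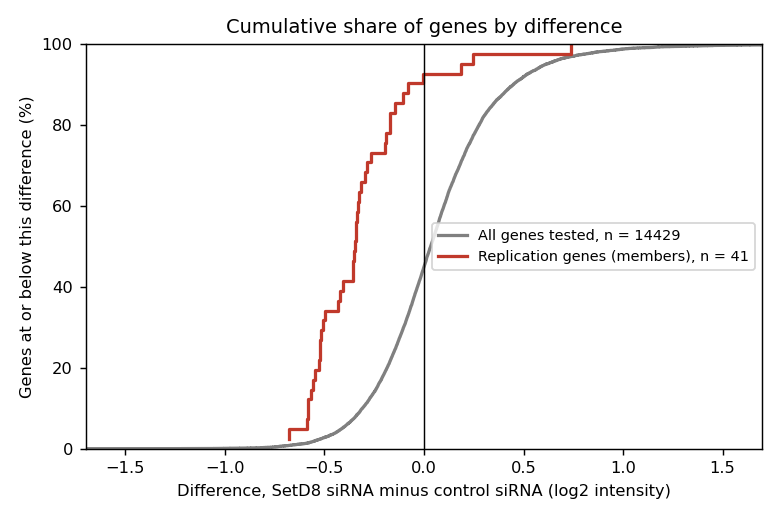
Cumulative share of genes by difference in log2 signal (SetD8 siRNA minus control siRNA, normexp and quantile normalization) for the 41 members and for all 14429 genes. The members' curve lies to the left, with a median of −0.35 against 0.03 for all genes.

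Set side by side, the medians were −0.52 for the helicase, −0.51 for single-strand binding, −0.38 for the firing kinase, −0.34 for polymerases and for ligation, −0.27 for licensing and −0.15 for the clamp loader (−0.25 without Rfc2). These differences between groups of genes were not tested. Of the 28 members with a mean log2 signal of at least 10, 18 had SetD8 siRNA arrays wholly below the controls and 3 went opposite ways on the slides. Of the 13 dimmer members, 3 and 6 did. Over all genes, at any signal, 9.94% lay wholly below the controls. The shares of all genes within these signal ranges are not given here. The part of signal level in these counts was not tested.

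A further 32 replication genes outside the set, among them the sliding clamp Pcna, had the same median, −0.35, with 29 negative (44.9% of all genes), 1 called lower and 0 higher (0.236% and 1.46% of all genes), and 17 with SetD8 siRNA arrays wholly below the controls (9.94% of all genes). Wdhd1, which joins the helicase to polymerase α, was the 1 called: it read 9.49, 9.46 and 9.37 on the controls and 8.77, 8.82 and 8.76 after SetD8 siRNA (−0.66 ± 0.10 SE; 1.58-fold lower; limma adjusted p = 0.0398). With slide as a block its adjusted p was 0.141, and leaving out 1 array ended its call for each array but control 3 (limma adjusted p 0.0459 to 0.256). Next by p were the origin-firing factors Ticrr (−0.63, limma adjusted p = 0.0508) and Mtbp (−0.81, limma adjusted p = 0.0832) and the clamp Pcna (−0.73, limma adjusted p = 0.0724), none of which passed.

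Markers of cell types were read beside these values. Of the 7 erythroid markers measured 0 were called, where 1.46% of all genes were called higher and 0.236% lower. Hba-a1, an α-globin gene, was set to 18.28 on every array by quantile normalization and carries no comparison; the other 6 had a summed linear signal of 55087 to 63916 on the controls and 52941 to 60796 on the SetD8 siRNA arrays, with 3 negative and a median difference of −0.07. Slc4a1, the anion exchanger of the red cell membrane, stood apart among them. It read 12.46, 12.33 and 12.97 on the controls and 11.04, 10.91 and 12.25 after SetD8 siRNA, a difference of −1.19 ± 0.38 (SE; 2.28-fold lower; limma adjusted p = 0.194). Its groups did not overlap, it was lower on slide 1 (−1.48) and slide 3 (−0.72), and its difference was larger than that of any replication gene described here. Of the 7 megakaryocyte markers measured, 1 was called (Gp1ba, 0.79, limma adjusted p = 0.0471; 0.114 with slide as a block and 0.927 under 75th percentile scaling), where 1.46% of all genes were called higher. The summed signal of these 7 markers was 8294 to 18568 on the controls and 12762 to 26925 after SetD8 siRNA. Mast cell (3 of 7 measured), myeloid (3 of 8), lymphoid (5 of 7) and stromal (4 of 7) markers had 0 called. Myeloid markers summed to 3758 to 3781 on the controls and 3888 to 5541 after SetD8 siRNA. Csf1r (0.97) and Elane (0.26) lay wholly above the controls, where 13.7% of all genes did, and Itgam (0.04) overlapped. Mast cell sums (493 to 1037 against 846 to 1216) overlapped between groups. So did lymphoid (878 to 2155 against 1292 to 2145) and stromal sums (2178 to 4353 against 3053 to 4721). The part of these cell types in the lower replication gene signals was not tested.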

How the data were processed

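RNA of 6 samples was measured on 1-colour Cy3 Agilent arrays. The authors deposited the scanner files, which give linear spot intensity from Feature Extraction 10.7.3.1, with probe positions on mm9, per the file headers. The deposited series matrix holds the same processed intensity and was used as a check of the files. Fitted at the 75th percentile scaling, it gave a member median of −0.57 and called 0 of 14429 genes, so it is no separate alternative. Per the submitters' processing notes limma was used, with no version. Groups came from the sample titles. Control spots and 139 to 176 outlier spots per array were left out, and spots of a probe were averaged. Probes were named through a RefSeq table (GRCm38.p6): 26863 by accession, 3752 by symbol and 623 by synonym, with 24443 unnamed. Probes had to be well above background on every array of 1 or both groups (30971 did), and a gene was its kept probe with the highest mean (14429 genes).

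Two-sided differences came from limma 3.58.1 in R 4.3.3 (lmFit, eBayes) with p-values adjusted by Benjamini-Hochberg across the 14429 genes (threshold 0.05), at 2 settings: processed signal scaled to each array's 75th percentile, and normexp (offset 50) of mean signal with quantile normalization. The first called 0 genes, and member values in the text are from the second; its median residual SD was 0.21 against 0.49. The offset understates changes of dim genes. The number of arrays limits the precision. The fit was tested on simulated data. Python 3.11.15, pandas 2.3.3, numpy 2.4.6 and matplotlib 3.10.9 were used. The genes named were every member, by role, and the 4 other replication genes of smallest p; promoters shown were those of the largest increase and 3 largest decreases that the table holds, plus Mcm5 and Mcm6. Members, lists and settings were chosen with earlier results of these data known.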

Additional observations from a re-analysis of the deposited data

How the results depend on the processing

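The member median stayed negative under every scaling, filter, summary and omitted array tried over the 6 arrays, from −0.49 (without control 3) to −0.29 (without control 2) on leaving out 1 array after normexp and quantile normalization, and from −0.92 to −0.29 at the 75th percentile scaling. Slide 3 alone gave −0.20 after normexp and quantile normalization and, as an alternative added after seeing the data, 0.21 at the 75th percentile; scaling to the array median gave −1.08, with all genes at −0.45. At the 75th percentile the count was 0, also with each array left out (0 to 0), and became 1 after normexp and quantile normalization and 28 with array weights (1 higher and 27 lower), a fit that called 3091 of all genes (21.4%). After normexp and quantile normalization the count of 1 (Rfc2, higher) became 0 with an offset of 16, 0 with slide as a block and 0 to 0 on leaving out 1 array. It became 6 with probes well above background on all 6 arrays (5 lower: Mcm10, Mcm3, Mcm5, Rpa2 and Rpa3), 12 with trend and robust moderation (11 lower) and 19 with array weights (18 lower). The weights ran from 0.298 (control 3) to 7.32 (control 1), so that fit leans on 1 control array. All genes called, both directions together, went from 245 (1.7%) to 597 (5.52% of 10822), 974 (6.75%) and 2061 (14.3%) under those 3 settings. With slide as a block they were 14 (0.097%). The split of all genes by direction under those 3 settings is not given here.

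Over 19 settings 35 of 41 members kept 1 sign. Single slides, and arrays left out at the 75th percentile scaling, were not among these settings. Among the 19, trend and robust moderation and the replicate block leave each member's difference as it was, so they could not change a sign. Within slide 3, 28 members were negative after normexp and quantile normalization and 9 at the 75th percentile. Of all 14429 genes, 6401 and 4870 were. Orc2 ran from −0.31 to 0.0339 on leaving out 1 array (positive without control 2) and was 0.00279 at the 75th percentile with slide as a block, where Gins3 was 0.12, Gins4 0.00294 and Rpa1 0.15. Scaling to the array median gave Orc5 −0.21 and Rfc1 −0.51. Rpa1 was 0.0174 as a mean of probes, 0.00341 with array weights, 0.0403 with slide as a block, −0.0665 to 0.0577 on leaving out 1 array (positive without control 2 or SetD8 siRNA 3) and 0.0405 with quantile normalization of the processed signal. The licensing median was 0.0406 on slide 3 alone. None of the 10 ratios between subunits changed sign at the 75th percentile scaling or on leaving out 1 array. Where the groups did not overlap, as in each ratio but Cdc7 over Dbf4, leaving out 1 array cannot change the sign, so that result is no separate support. The deviations of arrays with the same replicate number correlated at 0.19, −0.25 and −0.19, and those of arrays with different numbers at −0.21 to 0.28. With 3 arrays a group, such values cannot show whether same-numbered arrays were paired. With the replicate block 0 members were called in both settings and Rfc2 had a limma adjusted p of 0.177. Used probes of all 41 members were well above background on all 6 arrays; how far dim signals limit the 13 members with a mean under 10 was not tested.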
